A study of Mus musculus with 96 samples.

Results

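The 44 genes described here encode the machinery that starts and copies DNA: the 6 subunits of the origin recognition complex (ORC), 3 licensing regulators, the 6 subunits of the MCM helicase, 8 factors of helicase activation, the sliding clamp and its 5 loader subunits, the 3 subunits of replication protein A (RPA), 4 subunits of primase and polymerase alpha, 4 of polymerases delta and epsilon, 2 enzymes that join Okazaki fragments, and the 2 core subunits of ribonucleotide reductase. They were chosen by name, and all 44 symbols were found among the 55401 gene rows. Oocytes and embryos of C57BL/6J mice were sequenced one by one with SMART-Seq v4, which primes cDNA on poly(A) tails. No group carried a transgene or a deletion, and per the labels the embryos were not treated. Females had received PMSG and hCG before pairing with males of the same strain. Collection ran in steps of 2 h up to 24 h, and the later groups are 36 h and morulae. The 16 groups were 8 oocytes, 7 morulae, which the labels put at approximately 84 h after fertilization, and embryos named by hours after fertilization. There were 5 per hour at 0 h, 2 h, 8 h, 10 h, 12 h, 14 h and 20 h. The 4 h group held 2 embryos and the 6 h group 3. There were 8 embryos of 16 h, 9 of 18 h, 10 of 22 h, 6 of 24 h and 8 of 36 h. The labels give hours and no cell-cycle phase, and how many females gave the embryos of a group is not given, so p-values measure the spread between these samples.

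ORC sits on origins and, with Cdc6 and Cdt1, loads the MCM helicase on DNA before S phase. Geminin (Gmnn) holds Cdt1 back once origins have fired. The kinase Cdc7 with its activator Dbf4, together with Cdc45 and the GINS complex, turns the loaded helicase into a moving fork, at which primase and the polymerases copy both strands, RPA coats single-stranded DNA, and the clamp Pcna tethers polymerases. In the mouse the egg stores transcripts and proteins for the first S phase, which falls in the 1-cell embryo before the first cleavage, and the embryonic genome takes over by the late 2-cell stage. Stored transcripts of the egg can be lengthened or shortened at their poly(A) tails, so a difference in the libraries can be one of transcript number or of tail length, and these cannot be told apart here. Levels are also relative to the other transcripts of a library, so a rise or fall is not one in amount per embryo.

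Gene counts per library ranged from 10378 to 6795311, with a median of 2099222. A pair of libraries stood apart. Replicate 5 of 10 h had a summed level of 10 oocyte and early-embryo markers of 19.5 CPM (the count scaled to a fixed library total), where the 10 h median was 13116 CPM. Its 16 cumulus and granulosa markers summed to 9220 CPM and its 5 oviduct markers to 6892 CPM. The test over the hours from 0 h to 14 h is given with and without that library. Morula replicate 4 held 10378 counts, 48 of them in the 44 genes, so a level of 35.4 CPM there is 1 count. The oocyte and early-embryo markers were detected in every group, with medians, in CPM, of 10766 for oocytes, 3224 for 36 h and 147 for morulae. A list of 6 morula markers (Cdx2, Krt8, Krt18, Gata3, Sox2 and Nanog) did not set the morulae apart. Its medians, in CPM, were 146 (oocytes), 164 (12 h), 62.2 (24 h), 39.3 (36 h) and 36.0 (morulae), and Sox2 had no count in any morula. The medians of the cumulus list, in CPM, were 575 (oocytes), 129.3 (0 h), 112.9 (2 h), 357 (8 h), 216 (12 h), 56.997 (24 h) and 42.3 (36 h). Without replicate 5, the highest single library of 10 h to 14 h for that list was 12 h replicate 5 with 1320 CPM. In the groups whose medians are given for the cumulus list, from 12 (oocytes, 12 h) to 15 of its 16 markers had a count. Amh, a member of that list, was at 0 in every group except 2 h, even in 10 h with its replicate 5. A level of 0 for Amh thus does not show that a library is free of cumulus transcripts. Embryos of 0 h to 36 h were processed together, and the oocytes and morulae in other batches.

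Sequences are shown for members among the 10 described library by library below, the 10 whose levels moved in the most tests. E2F factors are known to switch on replication genes in dividing cells, and cytoplasmic polyadenylation elements (CPEs) mark stored egg transcripts for tail lengthening. The E2F words searched were TTTCCCGC, TTTCGCGC, TTTGCCGC and TTTGGCGC on both strands, in a window of 250 bases before to 50 bases after each start site (RefSeq, GRCm38.p6). At least 1 word was present in 14 of the 36 members with a promoter entry (38.9%) and in 704 of 27025 genes (2.60%). Gmnn, Mcm4, Gins1, Gins2, Gins4, Rfc2, Prim2 and Pole had no entry. The words were in the promoters of Pole2, Rfc3, Cdt1 and Orc3 among the 10, and are in capitals in these stretches, written 5′ to 3′ on the gene's strand.
Pole2 promoter, chr12:69228162-69228191, minus strand: cgtcggcggtgGCGCCAAAtcgcgaacatg
Rfc3 promoter, chr5:151651195-151651224, minus strand: gcacgcTTTCGCGCtcGCGGGAAAactcta
Cdt1 promoter, chr8:122568036-122568064, plus strand: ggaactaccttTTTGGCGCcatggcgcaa
Orc3 promoter, chr4:34614965-34614994, minus strand: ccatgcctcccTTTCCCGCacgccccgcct
Rfc3 carries a pair of such words, in opposite orientation, around its start site. CCAAT, on either strand of the same window, was in 23 of 36 members (63.9%) and in 41.1% of all genes. The CHR words TTTGAA and TTCGAA were in 9 of 36 (25.0%) and in 21.7%.

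The CPE words TTTTAT and TTTTAAT were searched on the transcript strand in the last 150 bases of the 3′ UTR (GENCODE M21, GRCm38). They were present in 16 of the 37 members with a window (43.2%) and in 23.3% of 19038 genes. A polyadenylation hexamer (AATAAA or ATTAAA) was in 30 of 37 members (81.1%) and in 79.8% of genes. Among the 10, CPE words were in Orc6, Cdt1, Mcm2 and Rfc3. They are shown in 30 bases with the word nearest to the transcript's end, and any hexamer within those 30 bases, in capitals. Orc6 and Rfc3 have a hexamer outside the printed bases, starting 22 and 88 bases from the end. Pole2, Orc3 and Cdc45 had no window.
Orc6 3′ UTR, chr8:85308011-85308040, plus strand: tttaaaTTTTATttcactaaatgttatata
Cdt1 3′ UTR, chr8:122573078-122573107, plus strand: tttggcTTTTAATAAAgtcatgtaagattt
Mcm2 3′ UTR, chr6:88883485-88883514, minus strand: tttattTTTTAATagatttgAATAAAacct
Rfc3 3′ UTR, chr5:151642756-151642785, minus strand: tctctgaggtataaatctttatTTTTATgt
In Cdt1 the CPE word overlaps a hexamer, and another hexamer, not printed, starts 20 bases from the transcript's end. A match describes these letters and no more.

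Replication transcripts were present at every stage. The 44 genes together made up, as medians of the summed CPM, 5279 (oocytes), 4379.6 (0 h), 7647 (12 h), 5675 (24 h), 3687 (36 h) and 2988 (morulae). Per kilobase of exon, the scale on which genes can be compared, the median member lay between 6.76 CPM per kb in morulae and 10.3 CPM per kb at 22 h. The median protein-coding gene with a count lay between 1.03 and 2.32 CPM per kb over the 16 groups, and 38 to 42 of the 44 members were above it. These values per kilobase include 10 h replicate 5, and the upper value of 2.32 CPM per kb is that of 10 h. Orc6, the smallest ORC subunit, Gmnn and Rpa3 were the 3 highest per kilobase in oocytes and in every group from 0 h to 24 h, for example 600.3, 469 and 329 CPM per kb at 12 h. In morulae Gmnn led with 299 CPM per kb, followed by Orc6 with 120.3 and the loader subunit Rfc4 with 118.97 CPM per kb. A few of the 44 were scarce through the 1-cell hours: Fen1, Pold1, Pole, Rfc2 and Rpa2 had group means under 7 CPM from 0 h to 14 h, apart from 10 h replicate 5.

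**Figure D1:**
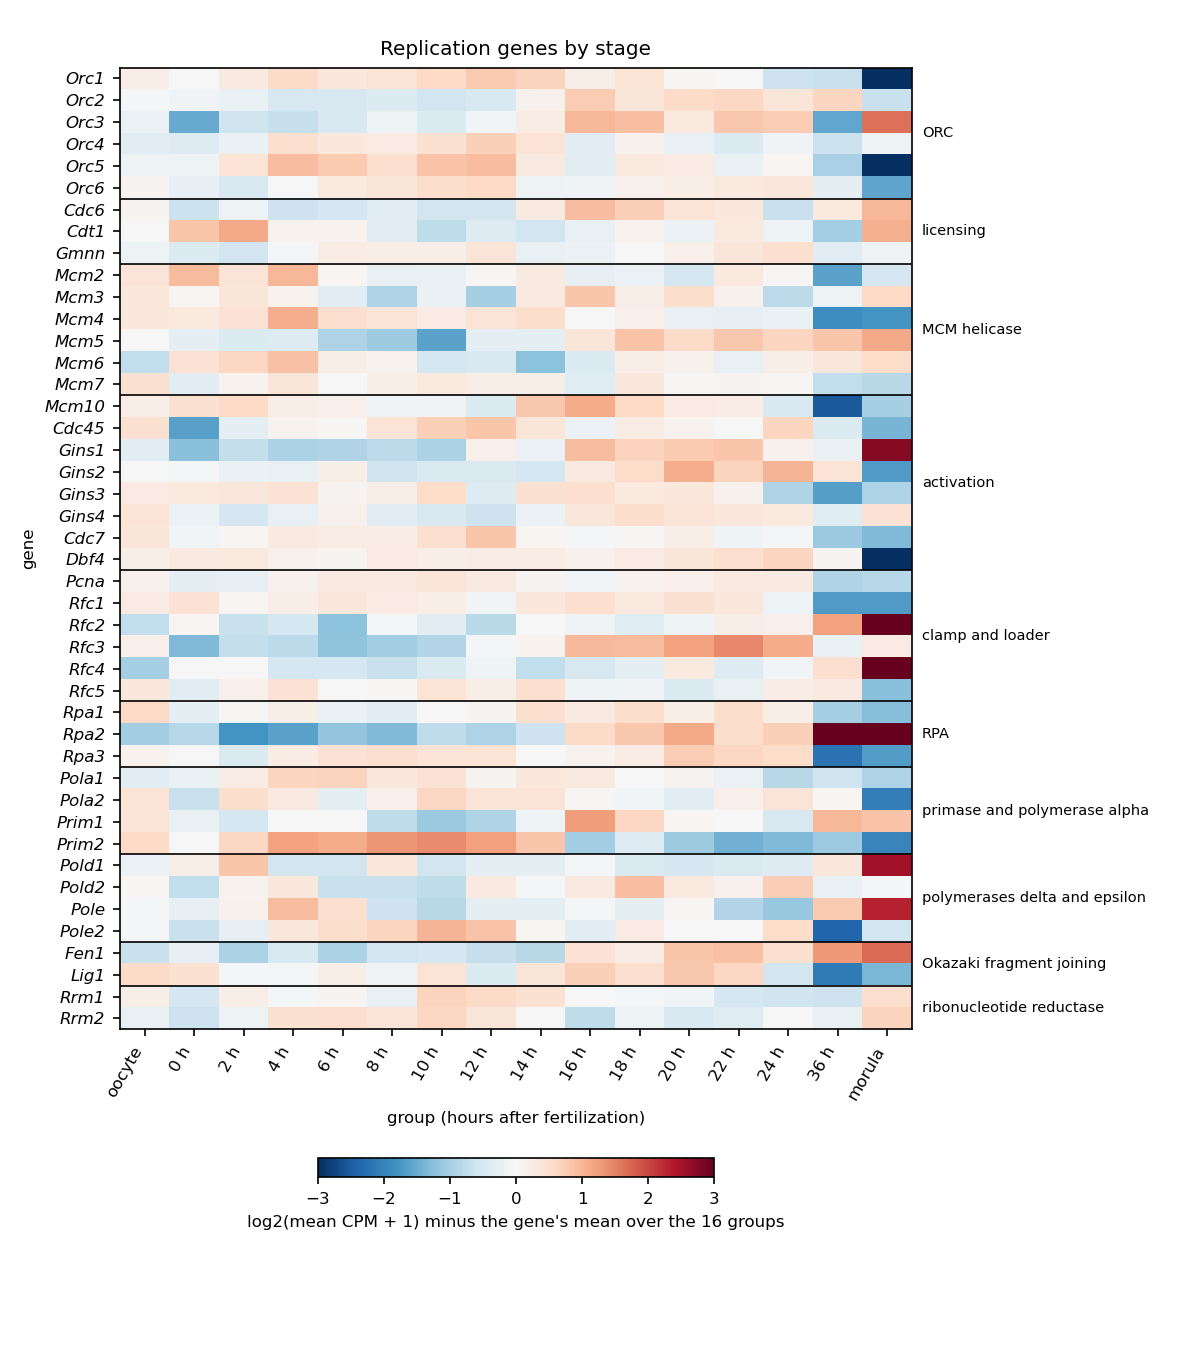
Heat map of the 44 genes (rows, by role) in the 16 groups (columns); colour is log2(mean CPM + 1) minus the gene's mean over the groups, with the colour scale ending at 3 in each direction, and 10 h is drawn without replicate 5 and morula without replicate 4. Prim2 is above its mean in oocytes and from 2 h to 14 h, close to it at 0 h, and below it from 16 h. Pole2 and Rpa3 are low at 36 h, and Rfc2, Rfc4, Rpa2 and Gins1 are high in morulae.

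The first comparison set the 0 h embryos against oocytes. Cdc45, which travels with the moving helicase, was lower at 0 h, as were the loader subunit Rfc3, the ORC subunit Orc3 and the polymerase alpha subunit Pola2. Mcm2 and Mcm6 of the helicase, the licensing factor Cdt1 and Rfc4 were higher. Of 39 members tested, 4 were higher and 16 lower by edgeR's quasi-likelihood test (adjusted p under 0.05), where 23.3% of all genes tested were higher and 22.5% lower. As a median, members stood at a log2 change of -0.29 and all genes at -0.02. The 10 largest decreases, as log2 changes, were Cdc45 (-2.11), Rfc3 (-1.51), Orc3 (-1.37), Pola2 (-1.12), Gins1 (-1.05), Rpa1 (-0.87), Mcm7 (-0.80), Cdc6 (-0.78), Rrm1 (-0.71) and Rfc5 (-0.65). The 4 increases were Rfc4 (1.28), Mcm6 (1.25), Cdt1 (0.88) and Mcm2 (0.58). Groups did not overlap for 1 of the 39 higher, Mcm2, and for 6 lower, where 12.5% of all genes tested were higher without overlap and 9.73% lower. Batch and stage cannot be told apart in this comparison, and the cumulus list was lower at 0 h, with a part in the result that was not tested. The calls of Cdc45, Rfc3 and Pola2 held in every alternative run, and those of the other 17 were lost in 1 fit of all 96 libraries. That fit called 0 members higher and 3 lower, beside 1015 and 586 of 18924 genes.

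From 2 h to 8 h, hours that lead into the first S phase, Gmnn and Orc6 rose without overlap between the groups. The small RPA subunit Rpa3, the polymerase epsilon subunit Pole2, Prim2, Cdc45, Rrm2 and Pcna rose too. Cdt1, Mcm3 and Mcm2 fell, each without overlap. Groups thus did not overlap for 2 of 39 members higher and 3 lower. Of all genes tested, 2.95% were higher without overlap and 8.12% lower. Of 39 members tested, 8 were higher and 3 lower, against 8.28% and 8.88% of all genes. Members and all genes both had a median log2 change of -0.05. The increases were Pole2 (0.92), Rpa3 (0.92), Orc6 (0.85), Gmnn (0.82), Prim2 (0.74), Cdc45 (0.70), Rrm2 (0.59) and Pcna (0.56), and the decreases Cdt1 (-1.48), Mcm3 (-1.29) and Mcm2 (-0.59). With library size as the sole scaling, the median of all genes was -0.28. The members' split was then 3 higher and 5 lower, beside 393 and 1375 of 9097 genes. In 1 fit of all 96 libraries 0 members and 0.576% of genes were called. There 7 of 44 members and 2289 of 18924 genes were at an unadjusted p under 0.05. DESeq2 called 12 members and 21.7% of genes. The number called was 5 to 7 without 2 h replicate 1, 2, 3 or 4 or 8 h replicate 3, where the share of all genes called was 10.4% to 13.6%, beside 17.2% with all libraries. It was 9 without the library of each group highest in cumulus markers (2 h replicate 2 with 956 CPM and 8 h replicate 2 with 2185 CPM), with 19.1% of all genes.

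By 12 h, against 0 h, 5 of the 6 ORC genes had risen, as had Cdc45, Gins1, Pole2, Rfc3, Prim2 and both ribonucleotide reductase genes. No MCM gene was higher, and Mcm2 fell. Of 38 members tested, 16 were higher and 5 lower, where 19.7% of all genes were higher and 19.4% lower. The median log2 change was 0.39 over the members and -0.02 over all genes. The 10 largest increases were Cdc45 (2.51), Gins1 (1.56), Orc3 (1.55), Pole2 (1.55), Rfc3 (1.34), Prim2 (1.24), Pola2 (1.15), Rrm1 (1.12), Orc4 (1.11) and Orc5 (1.06). The decreases were Cdt1 (-1.28), Mcm2 (-0.93), Mcm10 (-0.86), Lig1 (-0.85) and Rfc1 (-0.51). The comparison shares its 0 h libraries with that of 0 h and oocytes, so opposite signs in the pair are not independent. The same holds for the later comparisons, which share the 12 h, 24 h or 36 h libraries with an earlier one. With library size as the sole scaling, the median of all genes was -0.29. The members' split was then 11 higher and 8 lower, beside 1005 and 2240 of 8211 genes. Without the 0 h libraries high in cumulus, blood or oviduct markers 12 members were higher and 2 lower. There 25.6% of all genes were called in place of 39.05%. The calls of Orc4, Cdc45, Rfc3, Pole2 and Rrm2 held in every alternative run. In 1 fit of all 96 libraries those 5 and no other were called, with 8.84% of all genes.

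Across the 8 hours sampled from 0 h to 14 h, 6 of 42 members tested changed (edgeR test of any difference among the hours, 35 libraries), where 14.7% of all genes did. They were Cdc45 (adjusted p = 2.41e-05), Rfc3 (adjusted p = 0.00147), Rrm2 (adjusted p = 0.0189), Cdt1 (adjusted p = 0.0236), Mcm6 (adjusted p = 0.0243) and Mcm2 (adjusted p = 0.0271). Without 10 h replicate 5, the library with almost no oocyte markers, 17 of 42 members and 33.9% of all genes were called. The 11 added were Orc1, Orc4, Orc5, Orc6, Gmnn, Mcm10, Pcna, Rpa3, Prim2, Pole2 and Rrm1. In those 34 libraries Orc1, Orc4, Orc5, Orc6, Gmnn and Cdc45 were highest at 12 h, and Prim2, Pole2, Pcna, Rrm1 and Rrm2 at 10 h. Cdt1 was highest at 2 h, Mcm2 and Mcm6 at 4 h, Rpa3 at 8 h, and Rfc3 and Mcm10 at 14 h. The 4 h mean of Mcm2 rests on 2 libraries at 59.8 and 212 CPM.

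Between 12 h and 24 h, an interval that spans the first cleavage, Prim2 fell most, and Orc1, Orc4, Orc5, Pola1 and Rrm1 fell. Gins2, Gins4 and Rfc3 rose. Of 40 members tested, 3 were higher and 6 lower, against 13.4% and 8.23% of all genes. Their median log2 change was -0.04, beside 0.05 over all genes. The decreases were Prim2 (-2.63), Orc1 (-1.45), Rrm1 (-1.23), Pola1 (-0.92), Orc5 (-0.89) and Orc4 (-0.84), and the increases Gins2 (1.51), Rfc3 (1.14) and Gins4 (0.89). With library size as the sole scaling, the median of all genes was 0.25. The members' split was then 5 higher and 4 lower, beside 1832 and 600 of 11083 genes. Without titles that end in b 15 members were called, 4 higher and 11 lower, with 35.8% of all genes in place of 21.6%. The call of Rrm1 held in every alternative run, and 4 or 5 members, with 14% to 15.8% of all genes, were called without 12 h replicate 1 or 24 h replicate 2 or 3.

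From 24 h to 36 h, the early to the late 2-cell stage, most of the members that moved fell. The largest decreases were in Pole2, Rpa3 and Orc3, and the middle RPA subunit Rpa2, Prim1 and Cdc6 rose. Of 41 members tested, 3 were higher and 14 lower, where 29.1% of all genes were higher and 23.2% lower. The members' median log2 change was -0.54 and that of all genes 0.05. The 10 largest decreases were Pole2 (-2.89), Rpa3 (-2.70), Orc3 (-2.32), Mcm10 (-2.10), Lig1 (-1.67), Mcm4 (-1.61), Mcm2 (-1.58), Rfc1 (-1.49), Rfc3 (-1.21) and Rpa1 (-1.11), and the increases Rpa2 (2.78), Prim1 (1.61) and Cdc6 (1.10). Groups did not overlap for 1 of the 41 higher, Rpa2, and for 8 lower, where 10.6% of all genes tested were higher without overlap and 11.3% lower. With library size as the sole scaling, the median of all genes was 0.29. The members' split was then 6 higher and 11 lower, beside 4172 and 2232 of 12636 genes. The calls of 11 of the 17 held in every alternative run, among them Pole2, Rpa3, Orc3, Mcm2, Mcm4, Pcna, Rpa2 and Prim1.

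In morulae, against 36 h, single subunits of the same complexes moved in opposite directions. Rfc4, Orc3, Gins1, Rfc2 and Cdt1 were higher by more than 2 on the log2 scale, and Dbf4, Orc1, Orc5, Pola2 and Gins2 were lower by more than 2. Of 43 members tested, 12 were higher and 10 lower, against 28.2% and 43.5% of all genes. The median log2 change was 0.17 over the members and -0.55 over all genes. The 10 largest increases were Rfc4 (3.87), Orc3 (3.30), Gins1 (2.94), Rfc2 (2.17), Cdt1 (2.12), Pole2 (1.90), Pole (1.65), Mcm10 (1.62), Rrm1 (1.14) and Mcm2 (1.08). The decreases were Dbf4 (-3.86), Orc1 (-2.47), Orc5 (-2.47), Pola2 (-2.33), Gins2 (-2.25), Rfc5 (-1.56), Orc6 (-1.37), Orc2 (-1.35), Cdc45 (-0.88) and Prim2 (-0.87). Batch and stage cannot be told apart here. DESeq2's size factors moved the median of all genes to -0.88. With them the members' split was 9 higher and 11 lower, beside 2737 and 5447 of 11216 genes. The calls of all but Mcm2, Cdc45, Gins4, Prim2 and Rrm2 held in every alternative run, including without morula replicate 4.

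**Figure D2:**
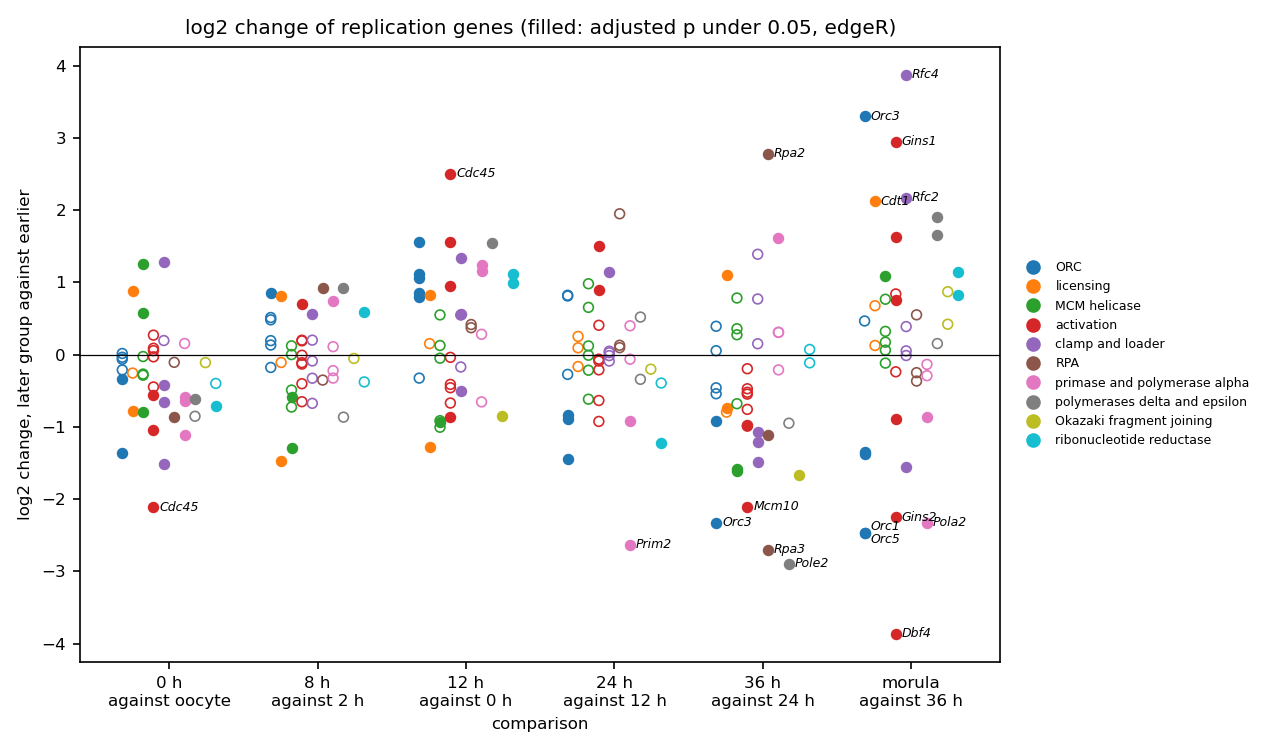
Log2 change (vertical axis) of each tested member in the 6 comparisons (horizontal axis), coloured by role; filled points passed an adjusted p of 0.05 in edgeR, and called members past 2 in either direction are named. Cdc45 stands at -2.11 at 0 h against oocyte and at 2.51 at 12 h against 0 h, and the spread is widest for morula against 36 h, from -3.86 for Dbf4 to 3.87 for Rfc4.

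Among the ORC genes, Orc5 (ENSMUSG00000029012.11; chromosome 5, 22486485 to 22550429), an ATP-binding core subunit, had the widest ratio between its highest and lowest group means. Oocytes had 423 CPM at the lowest, 572 CPM at the median and 699.5 CPM at the highest. The 0 h embryos had 367, 336, 745, 812 and 580.5 CPM, and the 12 h embryos 1343, 1438, 1035, 1287 and 776 CPM. Only the lowest 12 h embryo lay within the 0 h range. The log2 change was 1.06 ± 0.25 (SE; adjusted p = 0.00257). At 10 h the values were 1185, 1125, 1018, 1118 and 1.54 CPM, the last being the library with almost no oocyte markers. At 24 h Orc5 had 484 CPM at the lowest, 634 CPM at the median and 770.4 CPM at the highest, without overlap with 12 h (log2 change -0.89 ± 0.21 SE, adjusted p = 0.00819). At 36 h it had 183 CPM at the lowest, 326 CPM at the median and 417 CPM at the highest, again without overlap (log2 change -0.91 ± 0.22 SE, adjusted p = 0.00206). In morulae it had 35.8 CPM at the lowest, 54.6 CPM at the median and 177 CPM at the highest, all 7 below the lowest 36 h embryo (log2 change -2.47 ± 0.31 SE, adjusted p = 2.09e-07). Its exons overlap those of Gm15421 on the same strand, so its level is uncertain to that extent.

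Orc6 (ENSMUSG00000031697.12; chromosome 8, 85299632 to 85308278) had 878 CPM at the lowest, 991 CPM at the median and 1276 CPM at the highest in oocytes. At 2 h it had 765, 607, 695, 645 and 826 CPM, and at 8 h 1416, 827, 1329.7, 1596 and 1091 CPM. Each 8 h embryo was above each 2 h embryo, narrowly so for the nearest pair. The log2 change was 0.85 ± 0.16 (SE; adjusted p = 0.00256). At 12 h it had 1669, 1291, 1991, 1678 and 781 CPM against 718, 708.8, 832, 1052 and 792 CPM at 0 h (log2 change 0.85 ± 0.21 SE, adjusted p = 0.00430), with 1 of 5 embryos inside the 0 h range. Morulae had 141.6 CPM at the lowest, 304 CPM at the median and 382 CPM at the highest, below all 36 h embryos, which had 575 CPM at the lowest, 758 CPM at the median and 1105 CPM at the highest (log2 change -1.37 ± 0.29 SE, adjusted p = 0.000209). The decrease at 0 h against oocytes (log2 change -0.33 ± 0.12 SE, adjusted p = 0.0281) was lost on leaving out any of 9 libraries. Exons of Vps35 overlap those of Orc6 on the opposite strand, and the use of strand in counting is not given, so its level is uncertain to that extent.

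Orc3 (ENSMUSG00000040044.11; chromosome 4, 34570796 to 34614944), a core subunit, ran low at 0 h and 36 h. Oocytes had 14.6 CPM at the lowest, 19.9 CPM at the median and 30.4 CPM at the highest. The 0 h embryos had 9.04, 5.26, 11.5, 11.03 and 1.72 CPM, all below the lowest oocyte (log2 change -1.37 ± 0.31 SE, adjusted p = 0.000977). By 12 h it had 22.4, 20.6, 24.2, 6.09 and 37.9 CPM, with 4 of 5 above the highest 0 h embryo (log2 change 1.55 ± 0.47 SE, adjusted p = 0.0136). Orc3 lost that call in 4 of 8 alternative settings. Among them were the run without the 0 h libraries high in cumulus, blood or oviduct markers and that without each group's highest cumulus library. At 24 h it had 17.4 CPM at the lowest, 34.99 CPM at the median and 71.2 CPM at the highest, and at 36 h 2.04 CPM at the lowest, 7.20 CPM at the median and 13.6 CPM at the highest, without overlap (log2 change -2.32 ± 0.44 SE, adjusted p = 0.000393). Morulae had 35.4 CPM at the lowest, 64.6 CPM at the median and 138.8 CPM at the highest, all above the highest 36 h embryo (log2 change 3.30 ± 0.39 SE, adjusted p = 8.25e-08). Of the other subunits, Orc4 rose from 153 to 329 CPM from 0 h to 12 h and Orc1, whose product is made anew in each cycle in many cells, from 69.5 to 121.3 CPM. In morulae Orc1 fell from 43.9 to 11.3 CPM and Orc2 from 84.6 to 28.7 CPM, and Orc4 was at 163 CPM against 126.1 CPM without a call.

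Of the licensing genes, Cdt1 (ENSMUSG00000006585.3; chromosome 8, 122568015 to 122573554), which brings the helicase to ORC and is destroyed during S phase, had its highest group mean at 2 h. Oocytes had 16.9 CPM at the lowest, 27.4 CPM at the median and 35.5 CPM at the highest. At 0 h it had 45.8, 42.9, 54.6, 66.2 and 32.7 CPM (log2 change 0.88 ± 0.20 SE, adjusted p = 0.000875), with 1 embryo inside the oocyte range. At 2 h it had 68.8, 44.1, 52.8, 83.3 and 52.6 CPM, and at 8 h 6.36, 14.1, 17.8, 39.7 and 26.3 CPM, all below the lowest 2 h embryo. The log2 change was -1.48 ± 0.34 (SE; adjusted p = 0.00838). At 10 h the first 4 libraries had 12.4 to 16.9 CPM and replicate 5 had 58.05 CPM. At 12 h it had 21.9, 28.4, 11.3, 29.4 and 10.3 CPM, below all 0 h embryos (log2 change -1.28 ± 0.33 SE, adjusted p = 0.00494). At 36 h it had 3.59 CPM at the lowest, 15.1 CPM at the median and 23.4 CPM at the highest, and in morulae 35.4 CPM at the lowest, 58.9 CPM at the median and 69.5 CPM at the highest, without overlap (log2 change 2.12 ± 0.39 SE, adjusted p = 3.50e-05). Its inhibitor Gmnn went the other way in the first hours, from 349 to 603 CPM from 2 h to 8 h (log2 change 0.82 ± 0.15 SE, adjusted p = 0.00224), and fell from 738 to 419 CPM from 24 h to 36 h, a call lost under 5 alternatives. Cdc6, the third licensing gene, had group means, in CPM, of 17.8 (0 h), 55.3 (16 h) and 17.7 (24 h), and rose to 35.2 CPM at 36 h (log2 change 1.10 ± 0.31 SE, adjusted p = 0.00621).

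The 6 MCM subunits form 1 ring, and their transcripts did not share a course. Mcm2 (ENSMUSG00000002870.8; chromosome 6, 88883474 to 88898780), which also binds histones, had 70.4 CPM at the lowest, 87.1 CPM at the median and 109.8 CPM at the highest in oocytes. At 0 h it had 161, 126.2, 132.7, 124.4 and 118.8 CPM, all above the highest oocyte (log2 change 0.58 ± 0.13 SE, adjusted p = 0.000694). At 2 h it had 108.9, 76.4, 89.5, 88.7 and 82.97 CPM, and at 8 h 69.1, 45.7, 53.4, 47.3 and 75.4 CPM, just below them (log2 change -0.59 ± 0.19 SE, adjusted p = 0.0474, a call lost on leaving out any of 8 libraries). At 12 h it had 71.6, 58.9, 50.9, 108.6 and 57.9 CPM, below all 0 h embryos (log2 change -0.93 ± 0.22 SE, adjusted p = 0.00280). At 24 h it had 52.1 CPM at the lowest, 64.3 CPM at the median and 109.5 CPM at the highest, and at 36 h 4.78 CPM at the lowest, 22.7 CPM at the median and 33.4 CPM at the highest. These groups did not overlap (log2 change -1.58 ± 0.36 SE, adjusted p = 0.00155). Morulae had 0 CPM at the lowest, 37.9 CPM at the median and 72.05 CPM at the highest, where the 0 is replicate 4 (log2 change 1.08 ± 0.40 SE, adjusted p = 0.0175).

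Mcm4 fell from 87.3 to 26.7 CPM from 24 h to 36 h (log2 change -1.61 ± 0.29 SE, adjusted p = 0.000274) and was at 24.2 CPM in morulae. Mcm6 rose from 17.2 to 39.8 CPM at 0 h (log2 change 1.25 ± 0.27 SE, adjusted p = 0.000611), with means of 54.8 CPM at 4 h and 11.995 CPM at 14 h. The 4 h mean rests on 2 libraries. The call of Mcm6 in the course from 0 h to 14 h was lost without 4 h replicate 2 and with the title number as a replicate block. Mcm3 fell from 24.2 to 9.35 CPM from 2 h to 8 h (log2 change -1.29 ± 0.32 SE, adjusted p = 0.0125). Mcm7 was lower at 0 h than in oocytes (from 61.5 to 35.01 CPM), and Mcm5 was called in 0 of the 7 tests, with group means from 3.01 CPM at 10 h, replicate 5 left out, to 27.0 CPM in morulae. Replicate 5 of 10 h had 442 CPM of Mcm6 and 129.03 CPM of Mcm5, against 10.3 to 29.7 CPM and 0.957 to 3.96 CPM in the other 4.

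Of the activation factors, Cdc45 (ENSMUSG00000000028.15; chromosome 16, 18780447 to 18811987) moved in 6 of the 7 tests. Oocytes had 155 CPM at the lowest, 179.9 CPM at the median and 218 CPM at the highest. The 0 h embryos had 38.6, 45.6, 51.9, 43.5 and 32.7 CPM, a range far below the oocytes (log2 change -2.11 ± 0.14 SE, adjusted p = 2.83e-11). At 2 h it had 97.6, 80.3, 119.4, 117.4 and 146 CPM, at 8 h 155, 136.8, 228, 217 and 152 CPM, and at 12 h 208, 217, 254, 346 and 178 CPM. Every 2 h embryo was above every 0 h embryo, an interval that was not tested, and the change from 2 h to 8 h was 0.70 ± 0.19 (SE; adjusted p = 0.0159). From 0 h to 12 h the log2 change was 2.51 ± 0.21 (SE; adjusted p = 2.07e-07). At 10 h the values were 205, 218, 232, 232 and 50.7 CPM. Cdc45 had 145.1 CPM at the lowest, 212 CPM at the median and 259 CPM at the highest at 24 h and 37.6 CPM at the lowest, 95.6 CPM at the median and 184 CPM at the highest at 36 h (log2 change -0.97 ± 0.26 SE, adjusted p = 0.00497), and these ranges overlapped. Morulae had 35.5 CPM at the lowest, 48.2 CPM at the median and 141.6 CPM at the highest (log2 change -0.88 ± 0.31 SE, adjusted p = 0.0137). Exons of Ufd1 overlap it on the opposite strand.

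The GINS genes diverged. Gins1 in oocytes averaged 10.9 ± 2.50 CPM (SD, n = 8). The 0 h mean was 5.22 ± 3.28 CPM (SD, n = 5), and that of 12 h 15.4 ± 3.59 CPM (SD, n = 5). Morulae, at 83.4 ± 42.2 CPM (SD, n = 7), were higher than 36 h by 2.94 ± 0.38 (SE; adjusted p = 2.76e-07) on the log2 scale. In 6 of 7 morulae it was between 76.3 and 128.4 CPM, and it was at 0 in replicate 4. Gins2 rose from 13.7 to 39.1 CPM from 12 h to 24 h and fell from 25.4 to 4.41 CPM in morulae. Gins4 rose from 77.2 to 146 CPM by 24 h, a call lost on leaving out any of 8 libraries, and Gins3 was called in 0 of 7 tests. Dbf4, the activator of Cdc7, stayed between 591 and 876 CPM as a group mean from 0 h to 24 h, 10 h replicate 5 left out. It had 413 CPM at the lowest, 558 CPM at the median and 959 CPM at the highest at 36 h and 26.1 CPM at the lowest, 37.9 CPM at the median and 70.8 CPM at the highest in morulae, a drop without overlap (log2 change -3.86 ± 0.33 SE, adjusted p = 5.53e-10). Cdc7 rose from 33.1 to 64.1 CPM from 0 h to 12 h, a call lost without 0 h replicate 3 or 5 or 12 h replicate 1 or 3. Mcm10, which helps start the fork, fell from 26.02 to 5.46 CPM by 36 h and rose from 5.46 to 15.02 CPM in morulae.

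**Figure D3:**
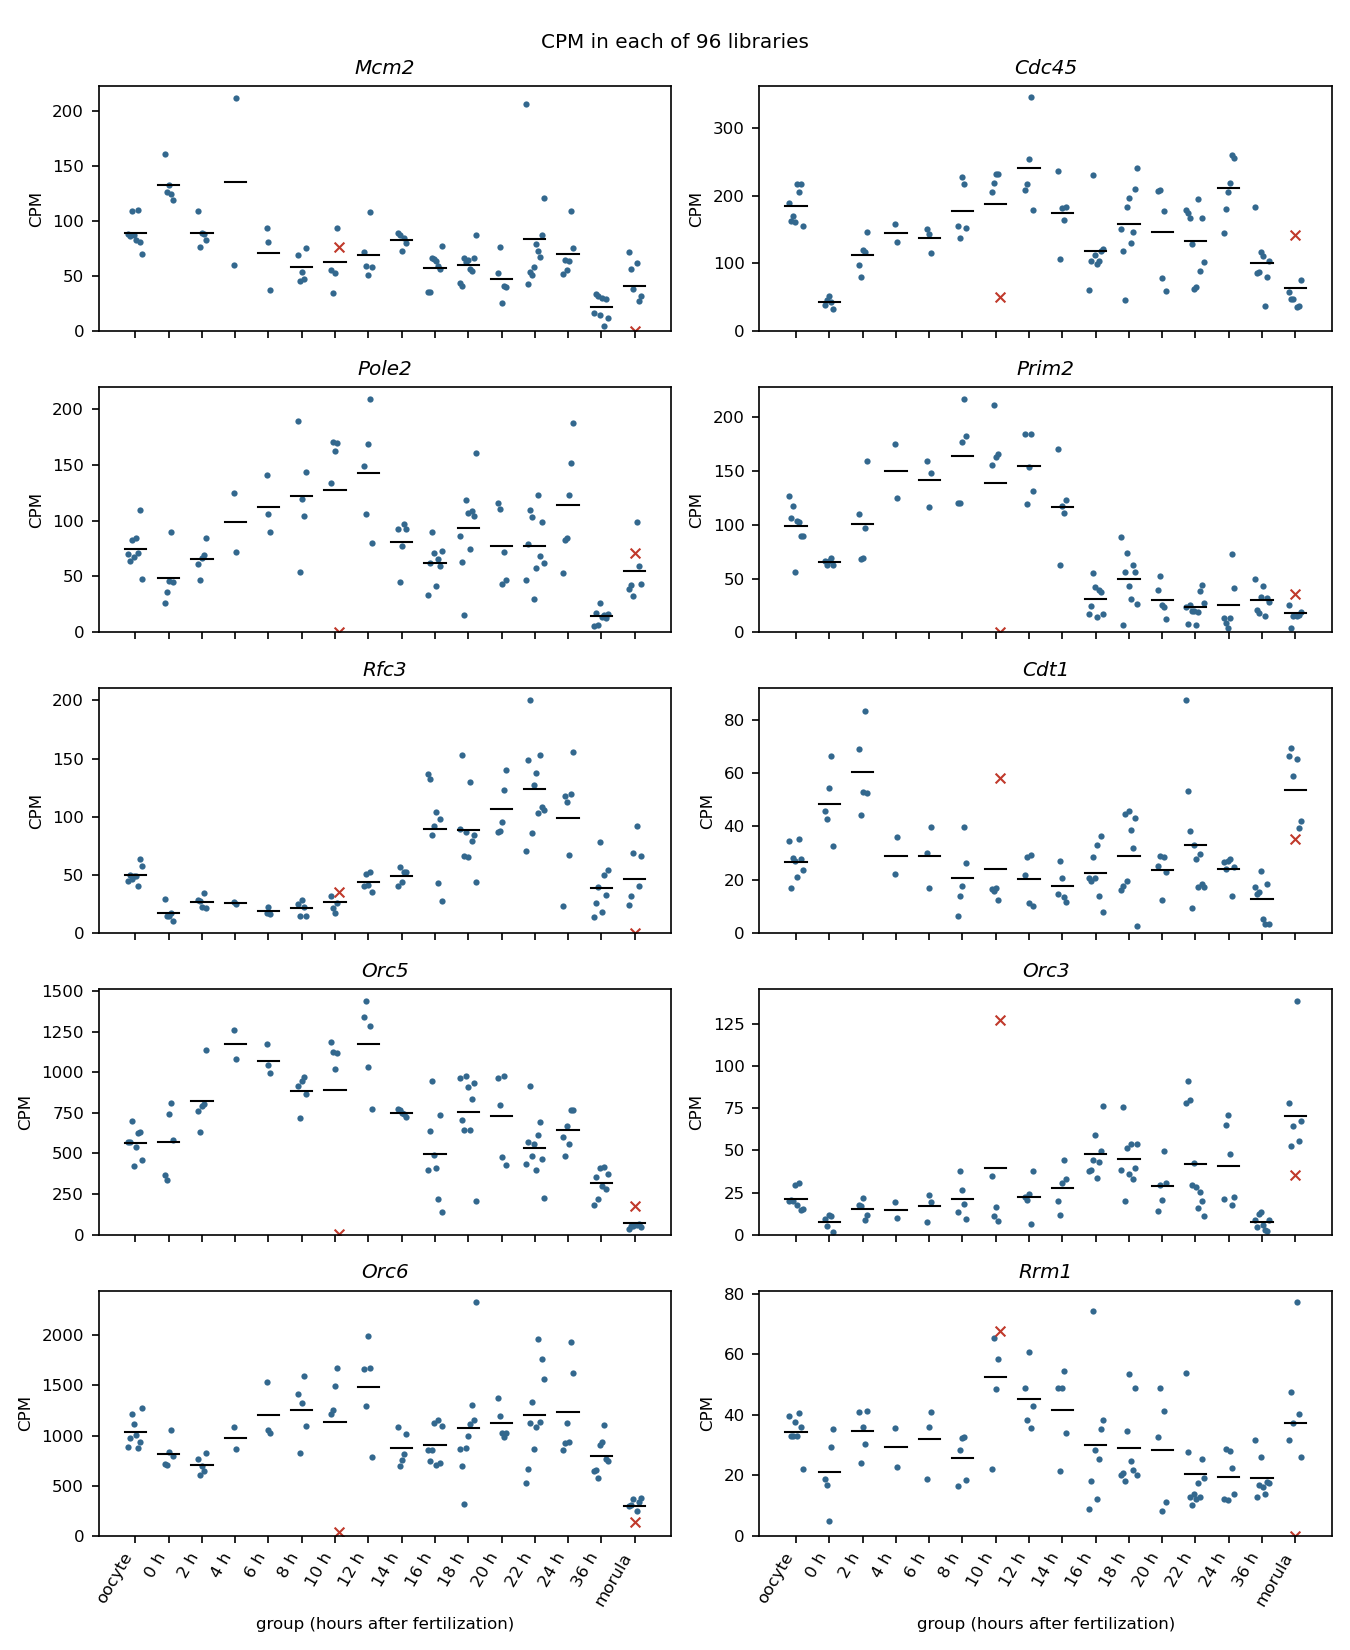
CPM (vertical axes, from 0) of the 10 members described in every library, in the 16 groups (horizontal axis); each point is 1 library, each line the group mean, and red crosses are 10 h replicate 5 and morula replicate 4. Cdc45 at 0 h lies between 32.7 and 51.9 CPM, below all oocytes, and Prim2 at 16 h lies between 13.8 and 55.6 CPM, below all 14 h embryos.

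The clamp loader genes also came apart. Rfc3 (ENSMUSG00000033970.15; chromosome 5, 151642756 to 151651242), a small loader subunit, had 40.5 CPM at the lowest, 49.4 CPM at the median and 64.02 CPM at the highest in oocytes. At 0 h it had 29.5, 14.9, 14.8, 17.8 and 10.3 CPM, all below the oocytes (log2 change -1.51 ± 0.21 SE, adjusted p = 2.68e-06). At 12 h it had 40.8, 51.01, 42.0001, 52.8 and 35.6 CPM, all above the 0 h embryos (log2 change 1.34 ± 0.30 SE, adjusted p = 0.00168). It went on to 23.7 CPM at the lowest, 115.3 CPM at the median and 155 CPM at the highest at 24 h (log2 change 1.14 ± 0.37 SE, adjusted p = 0.0392, a call lost on leaving out any of 8 libraries). At 36 h it had 14.2 CPM at the lowest, 36.3 CPM at the median and 78.3 CPM at the highest (log2 change -1.21 ± 0.40 SE, adjusted p = 0.0170), and the ranges overlapped. Its highest group mean was 124.3 CPM at 22 h.

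Rfc4 was scarce until the morula. It had 7.63 CPM at the lowest, 11.2 CPM at the median and 21.2 CPM at the highest at 36 h and 70.8 CPM at the lowest, 187 CPM at the median and 278 CPM at the highest in morulae, without overlap (log2 change 3.87 ± 0.33 SE, adjusted p = 4.69e-10). Exons of Eif4a2 overlap it on the opposite strand. Rfc2 rose from 8.91 to 36.7 CPM, while Rfc5 fell from 82.6 to 28.97 CPM and the large subunit Rfc1 was at 51.999 CPM at 36 h and 59.5 CPM in morulae. Rfc1 had fallen from 155 to 51.999 CPM between 24 h and 36 h (log2 change -1.49 ± 0.27 SE, adjusted p = 0.000261). Pcna, the clamp itself, fell at 0 h (from 213 to 157 CPM), rose by 12 h (from 157 to 232 CPM) and fell by 36 h (from 232 to 103.2 CPM).

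RPA is a trimer, and its subunit transcripts moved in opposite directions at the late 2-cell stage. At 24 h Rpa3 had 283 CPM at the lowest, 424 CPM at the median and 474 CPM at the highest, and at 36 h 25.7 CPM at the lowest, 59.9 CPM at the median and 88.1 CPM at the highest (log2 change -2.70 ± 0.25 SE, adjusted p = 6.32e-07). Rpa2 had 6.26 CPM at the lowest, 14.4 CPM at the median and 37.8 CPM at the highest at 24 h and 65.7 CPM at the lowest, 125.7 CPM at the median and 132.96 CPM at the highest at 36 h (log2 change 2.78 ± 0.36 SE, adjusted p = 1.78e-05). Neither pair of groups overlapped. Per kilobase, Rpa3 went from 362 to 52.2 CPM per kb and Rpa2 from 5.60 to 36.5 CPM per kb, and at both hours the mean of Rpa3 was higher on that scale. The large subunit Rpa1 fell from 44.998 to 19.3 CPM. In morulae none of the 3 was called, with means of 18.4, 79.4 and 84.01 CPM.

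**Figure D4:**
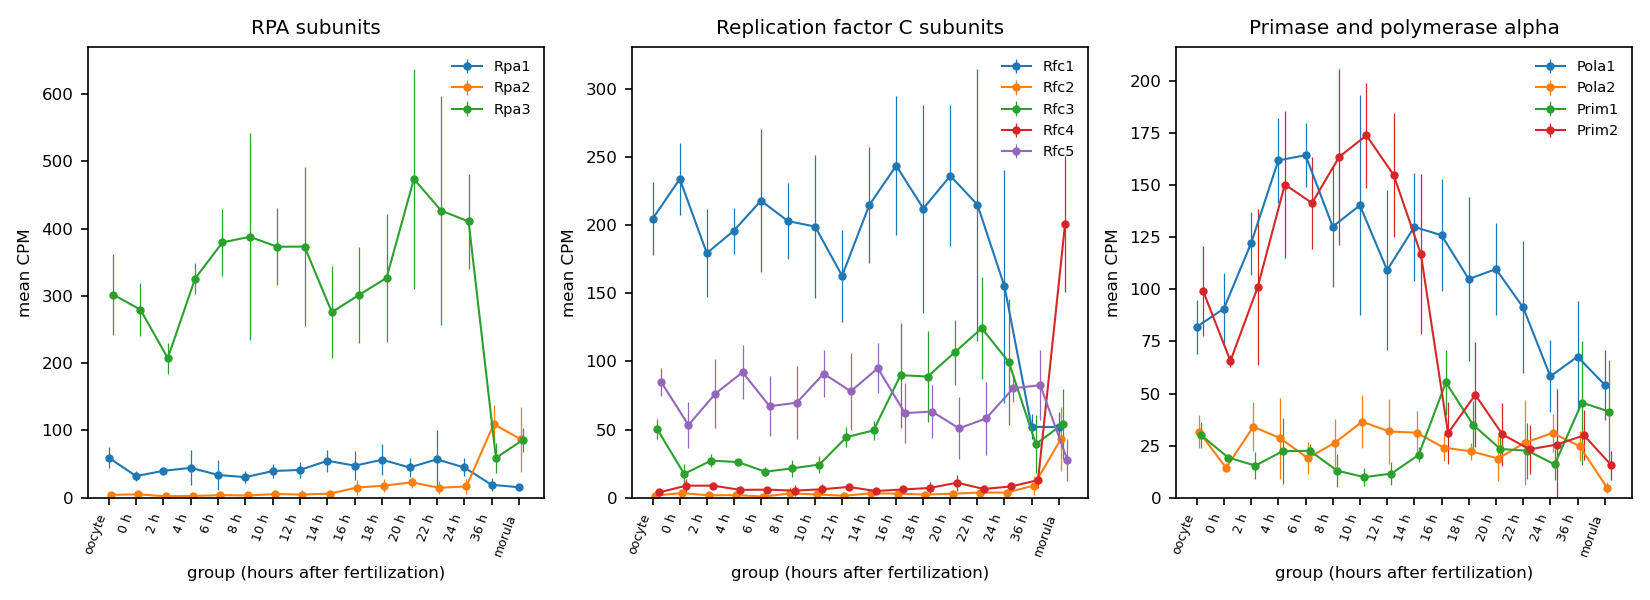
Mean CPM (vertical axes, from 0; bars are SD over libraries) of the subunits of RPA, of replication factor C and of primase with polymerase alpha in the 16 groups (horizontal axes), with 10 h drawn without replicate 5 and morula without replicate 4. Rpa3 drops and Rpa2 rises between 24 h and 36 h, Rfc4 rises in morulae, and Prim2 is lower at 16 h than at 14 h.

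Prim2 (ENSMUSG00000026134.11; chromosome 1, 33453810 to 33669795), the large primase subunit, had a block-like course through the 1-cell hours. At 0 h it had 66.3, 63.1, 66.7, 69.2 and 62.9 CPM, and oocytes had 55.8 CPM at the lowest, 103.4 CPM at the median and 126.9 CPM at the highest (log2 change -0.59 ± 0.16 SE, adjusted p = 0.00439). At 2 h it had 110.1, 68.4, 69.5, 97.2 and 159.9 CPM, at 8 h 120.02, 120.7, 177, 217 and 183 CPM and at 12 h 185, 119.7, 154, 185 and 131.4 CPM. All 12 h embryos were above all 0 h embryos (log2 change 1.24 ± 0.18 SE, adjusted p = 5.33e-05). At 14 h it had 171, 62.5, 118.01, 110.6 and 122.99 CPM, and at 16 h 13.8 CPM at the lowest, 31.03 CPM at the median and 55.6 CPM at the highest. These neighbouring groups did not overlap, and their difference was not tested. At 24 h it had 4.39 CPM at the lowest, 13.1 CPM at the median and 72.8 CPM at the highest, below all 12 h embryos (log2 change -2.63 ± 0.56 SE, adjusted p = 0.00518). It was at 29.9 CPM at 36 h and 18.4 CPM in morulae. Its partner Prim1, the catalytic subunit, had its lowest mean at 10 h, 9.85 CPM without replicate 5, and rose from 15.98 to 45.7 CPM from 24 h to 36 h (log2 change 1.61 ± 0.54 SE, adjusted p = 0.0186). The polymerase alpha subunits moved apart in time: Pola1 fell from 109.2 to 58.2 CPM from 12 h to 24 h, and Pola2 fell from 24.7 to 4.17 CPM in morulae (log2 change -2.33 ± 0.46 SE, adjusted p = 7.94e-05).

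Pole2 (ENSMUSG00000020974.6; chromosome 12, 69201773 to 69228195), the second subunit of the leading-strand polymerase, had 26.5, 35.9, 45.8, 89.5 and 44.8 CPM at 0 h. At 12 h it had 149, 105.9, 169, 209 and 79.6 CPM, with 1 of 5 inside the 0 h range (log2 change 1.55 ± 0.30 SE, adjusted p = 0.000638). At 2 h it had 60.8, 47.05, 66.9, 68.99 and 84.3 CPM, and at 8 h 189, 54.2, 119.7, 104.6 and 143.4 CPM (log2 change 0.92 ± 0.25 SE, adjusted p = 0.0194). The lowest 8 h embryo was inside the 2 h range. At 24 h it had 52.8 CPM at the lowest, 103.99 CPM at the median and 188 CPM at the highest, and at 36 h 5.30 CPM at the lowest, 14.4 CPM at the median and 26.6 CPM at the highest, without overlap (log2 change -2.89 ± 0.36 SE, adjusted p = 1.30e-05). Morulae had 32.8 CPM at the lowest, 43.6 CPM at the median and 99.1 CPM at the highest, all above the 36 h embryos (log2 change 1.90 ± 0.37 SE, adjusted p = 6.10e-05). Exons of Gm49384 overlap it on the same strand. The catalytic subunit Pole was scarcer, at 6.09 CPM at 36 h and 16.6 CPM in morulae (log2 change 1.65 ± 0.55 SE, adjusted p = 0.00935).

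Pold1, the catalytic subunit of polymerase delta, passed the filter on low counts in 0 of the pairwise comparisons. It was at 0 counts at 4 h, at 6 h and in the 4 other libraries of 10 h, which allows at most 0.780, 0.660 and 0.254 CPM respectively (3 counts over the group's libraries, counting error only). Replicate 5 of 10 h alone had 183 CPM. Morulae had 6.35 ± 4.62 CPM (SD, n = 7) of Pold1 and 5.55 ± 5.00 CPM (SD, n = 7) of Pold2, which was called in 0 tests. Fen1, the flap nuclease, had group means of at most 1.04 CPM between 0 h and 14 h, replicate 5 of 10 h left out with its 54.8 CPM. Its 16 h mean was 2.26 CPM and its 36 h mean 4.90 ± 4.39 CPM (SD, n = 8), differences that were not tested. Lig1, the ligase that seals Okazaki fragments, was at 39.5 CPM in oocytes and fell from 17.5 to 5.28 CPM from 24 h to 36 h. That call was lost without 24 h replicate 5, without titles that end in b, and with the title number as a replicate block. The call of Lig1 at 12 h against 0 h was lost on leaving out any of 6 libraries. These are levels of transcripts, and the proteins stored in the egg were not measured.

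Rrm1 (ENSMUSG00000030978.10; chromosome 7, 102441695 to 102469771), the large subunit of ribonucleotide reductase, which makes the building blocks of DNA, had 18.7, 16.6, 4.72, 29.4 and 35.3 CPM at 0 h and 48.8, 38.3, 60.6, 35.5 and 42.9 CPM at 12 h. All 12 h embryos were above all 0 h embryos, narrowly so for the nearest pair (log2 change 1.12 ± 0.37 SE, adjusted p = 0.0246). At 24 h it had 11.9 CPM at the lowest, 18.03 CPM at the median and 28.7 CPM at the highest, below all 12 h embryos (log2 change -1.23 ± 0.30 SE, adjusted p = 0.0108). At 36 h it had 12.7 CPM at the lowest, 17.2 CPM at the median and 31.8 CPM at the highest, and in morulae 0 CPM at the lowest, 37.4 CPM at the median and 77.1 CPM at the highest (log2 change 1.14 ± 0.34 SE, adjusted p = 0.00453). Oocytes had 21.9 CPM at the lowest, 34.5 CPM at the median and 40.5 CPM at the highest, and the lower level at 0 h (log2 change -0.71 ± 0.29 SE, adjusted p = 0.0477) was lost on leaving out any of 10 libraries. Rrm2, the small subunit, rose with it by 12 h from 104.9 to 209 CPM (log2 change 0.99 ± 0.25 SE, adjusted p = 0.00386) and in morulae from 139.4 to 242 CPM.

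Other genes of the pathway, in 4 lists, are given for orientation, and their counts stand beside the shares of all genes given above: 19.7% higher and 19.4% lower from 0 h to 12 h, 29.1% and 23.2% from 24 h to 36 h, and 28.2% and 43.5% in morulae. Of the kinase, checkpoint and E2F genes, 6 of 20 rose and 5 fell from 0 h to 12 h, with the checkpoint kinase Chek1 rising from 1394 to 2899 CPM, cyclin B1 (Ccnb1) from 1951 to 5259 CPM and the phosphatase Cdc25b falling from 35.5 to 6.74 CPM. From 24 h to 36 h 10 of 28 rose and 7 fell, with cyclin E1 (Ccne1) rising from 19.9 to 173 CPM and Timeless, of the fork protection complex, falling from 46.4 to 5.89 CPM. In morulae 1 of 27, the mitotic kinase gene Cdk1, was higher (from 249 to 745 CPM) and 12 were lower, among them E2f5 (from 554 to 34.8 CPM) and Rb1 (from 143.8 to 11.6 CPM). That list's median log2 change in morulae was -0.998, beside -0.55 over all genes.

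Of the nucleotide supply genes, 1 of 12 rose and 1 fell from 0 h to 12 h, and 9 of 17 rose and 2 fell from 24 h to 36 h (median log2 change 1.005), with deoxycytidine kinase (Dck) rising from 5.73 to 44.02 CPM and the CTP synthase Ctps falling from 496 to 92.8 CPM. In morulae 11 of 18 were higher and 5 lower (median 2.07), with thymidine kinase 1 (Tk1) rising from 9.27 to 145.4 CPM and the dUTPase gene Dut falling from 707.6 to 143.8 CPM. Of the chromatin assembly genes, 1 of 11 rose and 8 fell from 24 h to 36 h (median -1.06). Chaf1b, of chromatin assembly factor 1, rose from 19.8 to 41.4 CPM, and the histone chaperone Asf1a fell from 451 to 95.6 CPM. From 0 h to 12 h 2 of these 10 rose and 4 fell, with Asf1b rising from 489 to 1319.7 CPM and Chaf1a falling from 152 to 28.6 CPM, and in morulae 2 of 11 were higher and 3 lower. Of the other replication factors, 3 of 23 rose and 10 fell from 24 h to 36 h (median -0.88), among them topoisomerase 1 (Top1, from 319 to 84.4 CPM). From 0 h to 12 h 3 of 22 rose, including the small polymerase epsilon subunits Pole3 (from 178 to 356 CPM) and Pole4 (from 767 to 1344 CPM), and 6 fell, including the polymerase alpha-associated Wdhd1 (from 73.5 to 22.98 CPM). In morulae 4 of 24 were higher and 8 lower.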

How the data were processed

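Expected counts per gene and repeat family were deposited for 96 single oocytes and embryos. They are not normalized, and 28.4% of the non-zero gene values are not whole numbers. Per the submitters' processing notes, the authors used Trimmomatic 0.39, STAR and featureCounts on mm10. The annotation release, the use of strand and the options behind the fractions are not given in the sources used here, so genes with near-identical copies and the 16 members whose exons overlap another gene are uncertain. Symbols, coordinates and exon lengths come from GENCODE M21 (GRCm38), which named 55141 of 55401 gene identifiers without their version.

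Expected counts were rounded, and repeat families were left out. Whole counts had been planned for, and the planned tests were kept. The labels' stage and hour set each library's group. Each pairwise comparison used only its own libraries in edgeR 4.0.16 (R 4.3.3), after the default filterByExpr filter, scaled by TMM; the quasi-likelihood F test was two-sided and robust, on a trended dispersion, with Benjamini-Hochberg adjustment over all genes tested. The course from 0 h to 14 h was 1 such test over 35 libraries. All adjusted p-values are from these tests. CPM values use TMM factors estimated once over 96 libraries, and the SE is the log2 change divided by the square root of F. DESeq2 1.42.0 and the other alternatives are in the closing section. The script was tested on simulated data.

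The 44 members and the 4 lists of related genes were chosen with earlier results of these data known. In each comparison up to 10 called members per direction were named by size, and values in every library are given for the 10 members called in most of the 7 tests, ties going to the widest ratio of group means. Of the related lists up to 3 genes per direction are named. Titles at 4 h and 6 h share a numbering, so those hours are less certain, and the meaning of the letter b in some titles of 16 h to 24 h is not stated. Reads amplified without molecular identifiers are not independent molecules.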

Additional observations from a re-analysis of the deposited data

Results flagged for a closer look

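Libraries were checked group by group for the 10 members given in every library and for the sum of the 44, in groups of 4 to 10 libraries, by setting the gap between the highest or lowest library and its neighbour against the range of the group. Of 154 group checks, 19 stood past the 95% critical value of Dixon's test, where chance gives about 1 in 20. Replicate 5 of 10 h, the library with almost no oocyte markers, accounted for 8 of them. It was lowest for the sum of the 44 members (3016 CPM, the others from 6415 to 7178 CPM), for Cdc45 (50.7 CPM), Pole2 (0.256 CPM), Prim2 (0.128 CPM), Orc5 (1.54 CPM) and Orc6 (33.2 CPM). It was highest for Cdt1 (58.05 CPM) and Orc3 (127.2 CPM). Morula replicate 4, the shallowest library, was highest for Cdc45 (142 CPM) and Orc5 (177 CPM), and morula replicate 5 was highest for Orc3 (138.8 CPM).

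Replicate 1 of 22 h was highest in its group for Mcm2 (207 CPM, the next at 121.005 CPM) and for Rrm1 (53.8 CPM, the next at 27.8 CPM). Replicate 3 of 16 h was highest for Cdc45 (229.98 CPM, the next at 120.6 CPM) and for Rrm1 (74.3 CPM, the next at 38.3 CPM). Replicate 9 of 18 h was lowest for Orc5 (209 CPM, the next at 641 CPM) and highest for Orc6 (2332 CPM, the next at 1306 CPM). In 24 h replicate 5 Cdt1 was lowest (14.1 CPM, the others from 23.9 to 27.9 CPM), and in oocyte replicate 8 Rrm1 was lowest (21.9 CPM, the others from 32.9 to 40.5 CPM). Of the libraries named in this paragraph, 24 h replicate 5 and oocyte replicate 8 enter the comparisons described above.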

How the results depend on the processing

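Under the alternatives run, 0 results about a member reversed. The calls that held in every alternative and without each library in turn were 3 of 20 for 0 h against oocyte, 0 of 11 for 8 h against 2 h, 5 of 21 for 12 h against 0 h, 1 of 9 for 24 h against 12 h, 11 of 17 for 36 h against 24 h, 17 of 22 for morula against 36 h and 2 of 6 for the course from 0 h to 14 h. For 8 h against 2 h, DESeq2 called 12 members and 21.7% of genes. In 1 fit of all 96 libraries, that comparison gave 0 members and 0.576% of genes. There 7 members and 2289 of 18924 genes were at an unadjusted p under 0.05. The same fit called 3 members and 8.46% of genes for 0 h against oocyte. It called 5 members and 8.84% for 12 h against 0 h, and 14.3% of genes for 24 h against 12 h. The cause was not tested. With no filter on low counts, where more genes were tested, 20.3%, 4.95%, 14.2%, 6.86% and 28.9% of genes were called in the first 5 comparisons and 7.03% in the course. Without titles that end in b, 24 h against 12 h gave 15 members and 35.8% of genes, and without the 0 h libraries high in cumulus, blood or oviduct markers 12 h against 0 h gave 25.6%. For the course, the calls were 12 members and 26.04% of genes with DESeq2's size factors, 18 and 29.001% with DESeq2's likelihood ratio test, 13 and 24.3% with 4 h and 6 h as 1 group, and 19 and 35.1% without the library highest in cumulus markers of each of 6 hours (4 h and 6 h kept whole), an alternative chosen after seeing the data.

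Leaving out each library in turn gave 16 to 22 members and 41.3% to 45.9% of genes for 0 h against oocyte, 5 to 11 members and 10.4% to 20.9% of genes for 8 h against 2 h, 16 to 21 members and 31.2% to 40.5% of genes for 12 h against 0 h, 4 to 13 members and 14% to 31.1% of genes for 24 h against 12 h, 16 to 21 members and 47.6% to 54.7% of genes for 36 h against 24 h, 20 to 25 members and 69.2% to 72.8% of genes for morula against 36 h, and 4 to 17 members and 10.6% to 33.9% of genes for the course, the highest without 10 h replicate 5.

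With 4 to 7 same-numbered pairs per comparison, whether title numbers pair the samples could not be settled. Correlations of same-numbered deviations ran from -0.19 to 0.53. Their medians in the 6 comparisons were 0.028, -0.013, 0.042, 0.029, 0.047 and 0.003. Pairs with other numbers had medians of 0.014, 0.016, -0.006, -0.039, -0.009 and -0.012. With the title number as a replicate block, 14, 9, 20, 6, 13 and 17 members were called in the order above, with 39.3%, 16.6%, 36.9%, 17.9%, 44.3% and 66.2% of all genes, and 4 members and 7.64% of genes for the course. Members under about 10 CPM rest on few counts per library, and in morula replicate 4 all 44 rest on 48.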

Other observations

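Summed by role and given as medians in CPM, the 6 ORC genes stood at 1841 (oocytes), 1643 (0 h), 3465 (12 h), 2002 (24 h), 1319 (36 h) and 664 (morulae). The 6 MCM genes stood, in that order of groups, at 337, 355, 269, 252, 152 and 178. The 2 ribonucleotide reductase genes stood at 97.003 (0 h), 260.1 (12 h), 162 (36 h) and 245 (morulae). These sums lean on the most abundant subunit of each role, which for ORC was Orc6 in each of the 6 groups.

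Counts by promoter and 3′ UTR words are given for the 6 comparisons in the order of the text. Of the 13 tested members with an E2F word, 2, 1, 4, 1, 1 and 3 were higher and 5, 2, 2, 2, 4 and 1 lower. Of the 19 to 22 with a promoter entry and no such word, 2, 5, 9, 0, 2 and 5 were higher and 8, 1, 3, 3, 8 and 7 lower. With a CPE word, 2, 3, 5, 1, 0 and 5 of 14 to 16 were higher and 3, 2, 3, 3, 7 and 3 lower, and without it 1, 3, 8, 2, 3 and 4 of 19 to 21 were higher and 9, 1, 2, 3, 4 and 6 lower. Of all genes tested, 23.3%, 8.28%, 19.7%, 13.4%, 29.1% and 28.2% were higher and 22.5%, 8.88%, 19.4%, 8.23%, 23.2% and 43.5% lower. No difference between members with and without a word was tested.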
